A study of Mus musculus with 3 samples.

Results

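Aminoacyl-tRNA synthetases, the enzymes that attach each amino acid to its transfer RNA, were read in the mouse embryonic stem (ES) cell line R1 together with their scaffold, editing and selenocysteine partners. Members were taken by symbol from the platform annotation (names ending in "ars" after 1 letter, with or without a final digit, together with Eprs, Farsa, Farsb, Aimp1, Aimp2, Aarsd1, Pstk and Sepsecs), from probe sets that carry 1 gene symbol. The rule reads symbols alone. Aars shares its probe set with another gene and is no member. This gave 39 of 19057 genes, read by 40 probe sets. They fall into 16 cytosolic synthetase genes, 16 mitochondrial synthetase genes, 2 genes whose enzymes serve both compartments (Gars and Kars), and 5 genes of the scaffold, of editing and of selenocysteine synthesis. The samples are 3 repeats of R1, a line of strain 129, whose total RNA was hybridised to an Affymetrix Mouse Gene ST array. They form 1 untreated group with no second condition. The series text calls them biological repeats, and neither it nor the labels speak of separate cultures or of feeder cells, so the spread between arrays, and any p-value built on it, measures the difference between these samples only.

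Protein synthesis depends on 2 separate sets of synthetases. One set works in the cytosol on transfer RNAs from the nucleus, and a part of it is held in a multisynthetase complex by the scaffold proteins Aimp1, Aimp2 and Eef1e1. The other set is made from nuclear genes, imported into mitochondria, and charges the transfer RNAs of the mitochondrial genome. Selenocysteine has no synthetase of its own: Sars charges its transfer RNA with serine, Pstk phosphorylates that serine and Sepsecs converts it to selenocysteine. Many cytosolic synthetase genes are known targets of Atf4, the transcription factor of the amino acid response.

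Values are log2 intensities. Background was set on each array by 1186 genes of the olfactory and vomeronasal receptors, which ES cells are not known to use: signal over their 95th percentile (4.72, 4.60 and 4.61 in repeats 1, 2 and 3) counts as above background. ES cell identity was checked with 10 markers, all above background on all 3 arrays, beside 71.4% of genes outside the receptor families. Among them were Pou5f1 at 11.77 ± 0.12, Sox2 at 10.78 ± 0.017 and Nanog at 11.00 ± 0.20 (SD, n = 3). Of 17 fibroblast markers 15 were above background on every array as well, all but Lum and S100a4. Of these 15, Postn, Pdgfra and Pdgfrb did not pass the stricter cutoff of other silent families, given below, on all arrays. Their summed intensity was highest in repeat 2, at log2 12.52, 12.90 and 12.56 in repeats 1, 2 and 3. The summed intensity of 13 interferon response genes, of which 7 were above background, was 9.29, 10.21 and 9.40. Repeat 2 thus stood apart from the other arrays in both marker groups, and their part in the results on synthetases was not tested.

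All 39 members gave signal on all 3 arrays, against 71.4% of 17871 genes outside the receptor families. Cytosolic enzymes averaged between 8.52 (Hars) and 10.82 (Rars), with a median of 9.66. Mitochondrial enzymes averaged between 5.68 (Pars2) and 8.69 (Tars2), with a median of 7.10. The median of all genes above background on all 3 arrays was 6.79. Tars2 was the one mitochondrial gene whose mean reached the cytosolic range. Each probe set responds with its own strength and intensities are not scaled by transcript length, so the gap between the classes is a description of signal and not of transcript number. At the 99th percentile of the receptor genes, which 54.8% of genes outside those families exceeded, 16 of 16 cytosolic and 15 of 16 mitochondrial enzymes passed on all arrays. At the cutoff set by 158 genes of other silent families (6.20, 6.31 and 6.20), which 42.0% exceeded, 16 cytosolic and 14 mitochondrial enzymes passed. Pars2 and Wars2, the prolyl and tryptophanyl enzymes of mitochondria, lay below that stricter cutoff on every array, so their signal was near background.

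**Figure D1:**
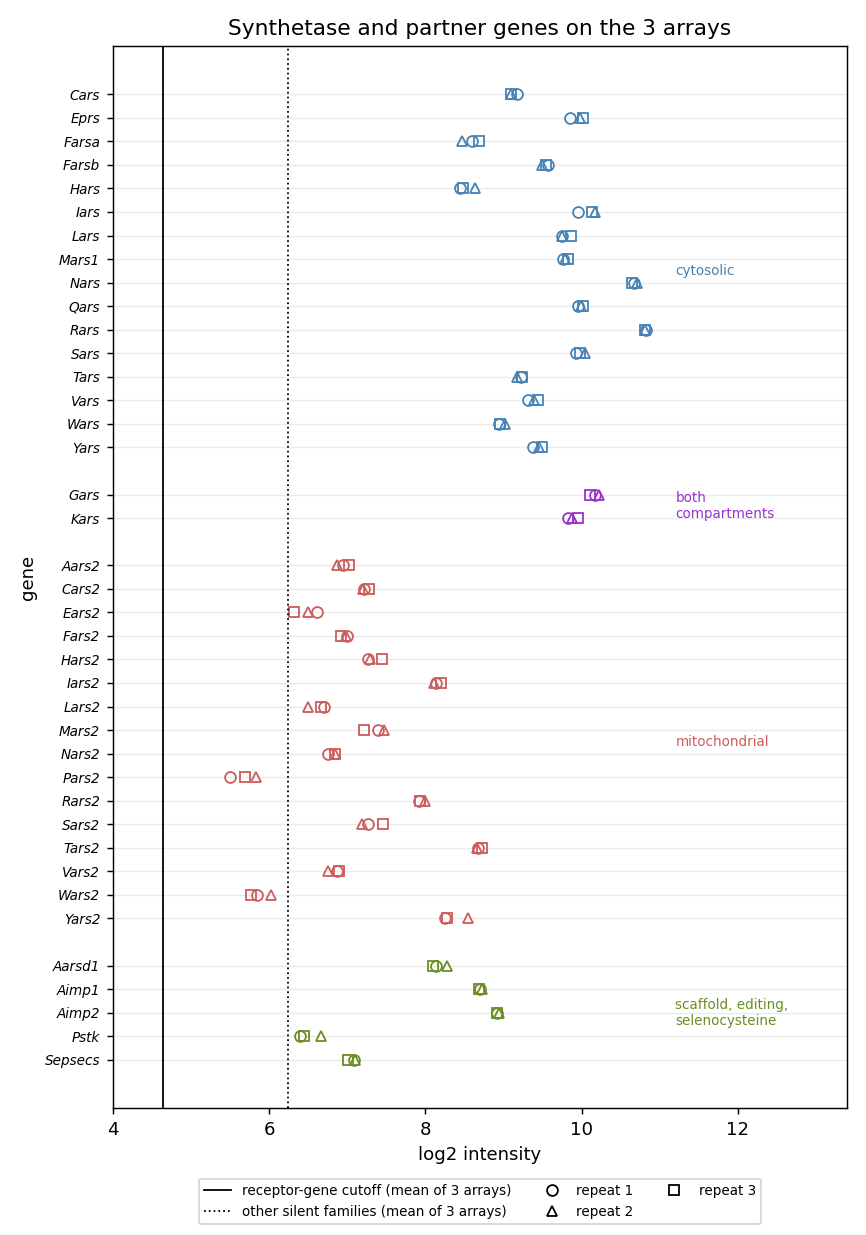
Log2 intensity of the 39 members, 1 row per gene and 1 symbol per repeat, coloured by class, with the receptor-gene cutoff as a solid line and the cutoff of other silent families as a dotted line. All genes lie right of the solid line, the cytosolic means run from 8.52 to 10.82 and the mitochondrial means from 5.68 to 8.69, and Pars2 and Wars2 lie left of the dotted line.

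Cytosolic enzymes differed little between repeats. Rars, which charges arginine, read 10.83, 10.81 and 10.82 in repeats 1, 2 and 3, the smallest SD of the class (0.0099). Tars, for threonine, read 9.22, 9.18 and 9.24 (SD 0.032). In both genes the 3 arrays lay almost on top of one another. Sars, which serves serine and the first step of selenocysteine, read 9.93, 10.04 and 9.98, with repeat 2 the highest. Eprs, a single protein that charges both glutamate and proline, read 9.86, 9.98 and 10.01, with repeat 1 the lowest.

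The widest cytosolic values belonged to Iars, Farsa and Hars. Iars, for isoleucine, read 9.95, 10.17 and 10.13 (SD 0.12). Its value is the mean of 2 probe sets that disagree. The brighter one read 10.39, 10.31 and 10.36 (SD 0.041), and the other 9.51, 10.03 and 9.91 (SD 0.27). Only the dimmer probe set thus put repeat 1 clearly below the other arrays, and in the brighter one repeat 1 was the highest. Farsa, the catalytic subunit of phenylalanyl-tRNA synthetase, read 8.59, 8.47 and 8.68, with repeat 2 the lowest, while its partner subunit Farsb read 9.56, 9.49 and 9.54, also with repeat 2 the lowest. Hars, for histidine, read 8.44, 8.63 and 8.48, with repeat 2 the highest. The other cytosolic enzymes spanned less than these 3 genes.

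Membership of the multisynthetase complex made little visible difference to the spread. The 10 genes of the complex (Eprs, Iars, Kars, Lars, Mars1, Qars, Rars, Aimp1, Aimp2 and Eef1e1) had a median SD of 0.051, and 11 synthetase genes outside it had a median of 0.053. The scaffold genes were among the most even of all: Aimp1 read 8.70, 8.73 and 8.69, and Aimp2 read 8.92, 8.94 and 8.92. Eef1e1, the third scaffold protein, was wider, at 10.38, 10.53 and 10.21. Its unadjusted p in the variance test given further on was 0.0672 and its adjusted p 0.934 (limma, Benjamini-Hochberg). The folds of the catalytic domain, class I and class II, also gave similar spreads among cytosolic and dual enzymes, with median SDs of 0.052 over 10 genes and 0.056 over 8 genes. Eprs, which charges both glutamate and proline, was counted in class I alone. Among mitochondrial enzymes the medians were further apart, at 0.105 over 9 class I genes and 0.080 over 7 class II genes.

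Mitochondrial enzymes held both even and uneven genes. Tars2, for threonine, read 8.67, 8.66 and 8.73, and Fars2, for phenylalanine, read 7.00, 6.98 and 6.93. These had the smallest SDs of the class (0.035 and 0.039). Yars2, for tyrosine, read 8.26, 8.55 and 8.28, and repeat 2 stood above the close values of the other arrays. Pars2, for proline, read 5.50, 5.83 and 5.69 and had the largest SD of all members (0.17). Wars2, for tryptophan, read 5.85, 6.03 and 5.77. In Yars2, Pars2 and Wars2 repeat 2 was the highest array.

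Other mitochondrial genes ran the other way or had another array at the edge. Lars2, for leucine, read 6.70, 6.50 and 6.66, with repeat 2 the lowest. Sars2, for serine, read 7.26, 7.19 and 7.46, with repeat 3 above the others. Ears2, for glutamate, read 6.61, 6.50 and 6.32, with repeat 3 the lowest. No array was therefore high or low throughout the class. The remaining mitochondrial genes had SDs between those of Fars2 and Sars2.

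The genes that serve both compartments were even. Gars, for glycine, read 10.17, 10.22 and 10.10 (SD 0.059), and Kars, for lysine, read 9.82, 9.88 and 9.96 (SD 0.069). Aarsd1, which removes wrongly attached amino acids from alanine transfer RNA, read 8.14, 8.27 and 8.10. Of the selenocysteine enzymes, Pstk read 6.39, 6.66 and 6.45 and Sepsecs 7.09, 7.10 and 7.01. In all 5 genes of the scaffold, editing and selenocysteine group repeat 2 was the highest array, which was so for 36.9% of all genes above background. After quantile normalization it was the highest in 2 of the 5, so this order depends on the scaling of the arrays.

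The classes were then set side by side for their spread. The median SD was 0.048 for cytosolic and 0.088 for mitochondrial enzymes, beside 0.101 for all genes above background. SD falls as signal rises over the whole array, so each SD was also divided by the SD that limma's trend gives at that gene's level. The median of this ratio was 0.54 for cytosolic enzymes, 0.74 for mitochondrial enzymes and 0.86 for all genes tested. The SD lay below the trend in 14 of 16 cytosolic and 11 of 16 mitochondrial genes, and in 60.0% of all genes. Iars lay above it as the mean of its probe sets (ratio 1.38) and below it with the brighter probe set alone (0.49). The gap between the classes nearly closed when repeat 2 or repeat 3 was left out. Without repeat 1 the median SDs were 0.036 for cytosolic and 0.103 for mitochondrial enzymes, without repeat 2 they were 0.048 and 0.055, and without repeat 3 they were 0.055 and 0.057. The ratio to the trend turned round without repeat 2 (0.54 for cytosolic and 0.44 for mitochondrial enzymes) and without repeat 3 (0.60 and 0.51). A difference in evenness between the compartments was therefore not stable over these arrays.

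**Figure D2:**
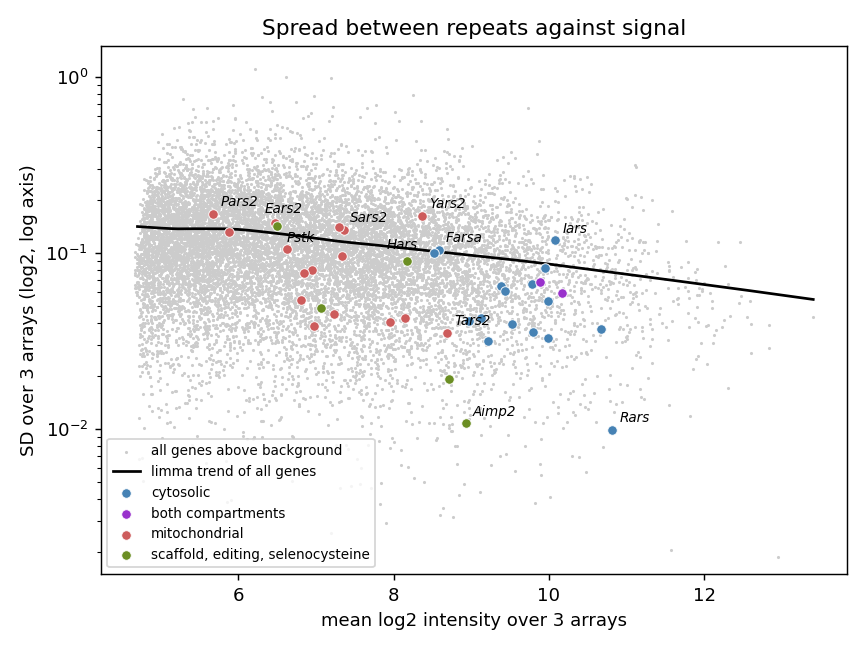
SD over the 3 arrays (log axis) against mean log2 intensity, with grey points for all genes above background, a black line for limma's trend and coloured points for the members by class. Most members lie under the line, 14 of 16 cytosolic and 11 of 16 mitochondrial genes, and 8 members lie above it (Yars2, Iars, Pars2, Sars2, Mars2, Ears2, Pstk and Farsa). Iars is drawn as the mean of its probe sets, and with the brighter one alone its ratio to the trend was 0.49.

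No member passed a test for variance beyond the trend. This limma test covered the 13591 genes with signal over background on 1 array or more. With Benjamini-Hochberg adjustment it called 22 genes (0.162%) at an adjusted p under 0.05, and 0 of the 39 members were among them. At an unadjusted p under 0.05 the count was 782 genes (5.75%) and again 0 members. The smallest unadjusted p of a member was 0.137, for Yars2 (adjusted p = 0.974). Pars2 was the one member whose arrays spanned more than 0.3 log2 units, which 22.7% of all genes above background did. A missed threshold does not show that the repeats were equal.

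For 12 amino acids both the cytosolic and the mitochondrial enzyme were measured as separate genes. The mitochondrial gene had the larger SD in 10 of these pairs, and in 7 once each SD was divided by the trend. Histidine and isoleucine were the exceptions on the plain scale. With the brighter Iars probe set alone (SD 0.041, against 0.043 for Iars2) the count was 11, and after quantile normalization it was 7. The tyrosine pair had an SD of 0.061 for Yars and 0.163 for Yars2. The methionine pair had SDs of 0.036 for Mars1 and 0.136 for Mars2, and the tryptophan pair 0.041 for Wars and 0.132 for Wars2. These pairs had the widest gaps on the plain scale. Divided by the trend, the values were 0.66 for Yars and 1.57 for Yars2, and 0.40 for Mars1 and 1.17 for Mars2. For Wars and Wars2 they were 0.42 and 0.97, and Wars2 was near background. Without repeat 2 the mitochondrial gene had the larger SD in 6 of 12 pairs, and without repeat 3 in 7. The shift of repeat 2 from the mean of the other arrays had the same sign in both partners in 6 of 12 pairs. For the shifts of repeat 1 and of repeat 3 the count was 6 of 12 as well. The shifts of a gene cancel out over the arrays, so these counts are not separate results. Some shifts were very small, such as -0.0014 for Rars in repeat 3. The counts were made on the deposited scaling alone, and whether partners vary together was not tested.

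**Figure D3:**
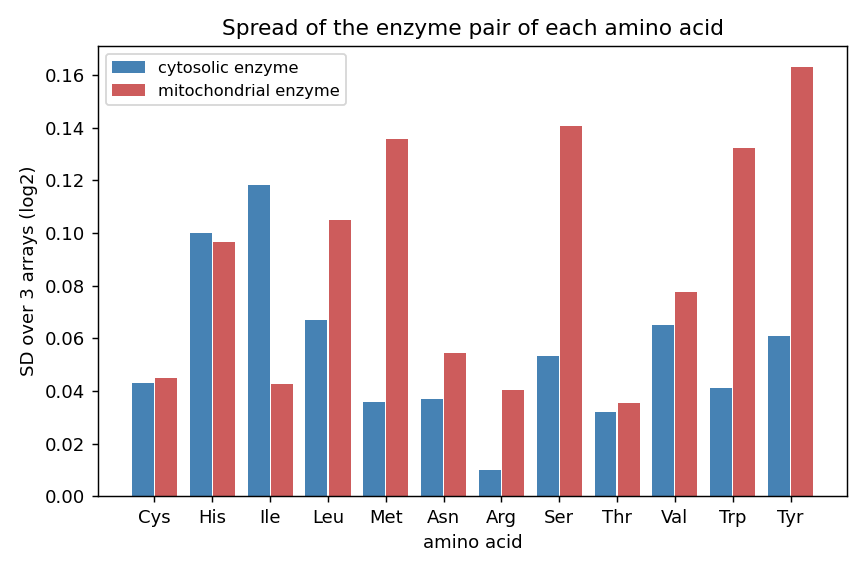
SD over the 3 arrays (log2 units) of the cytosolic enzyme (left bar) and the mitochondrial enzyme (right bar) for each of 12 amino acids. The mitochondrial bar is taller in 10 pairs, among them tyrosine (0.061 for Yars, 0.163 for Yars2), and shorter for histidine and isoleucine.

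Each repeat was next set against the mean of the other repeats. In repeat 2, the array with the high fibroblast and interferon signal, the median shift was 0.0089 log2 units over cytosolic and -0.011 over mitochondrial enzymes, beside 0.0065 over all genes above background. After quantile normalization these medians were -0.047, -0.052 and -0.015, so the cytosolic value changed sign; after centring on the array medians they were 0.027, 0.0065 and 0.024, and there the mitochondrial value changed sign. The shifts of single cytosolic genes ran from -0.16 (Farsa) to 0.17 (Hars), and those of mitochondrial genes from -0.18 (Lars2) to 0.28 (Yars2). In the same array the median shift was 0.36 over the 17 fibroblast markers and 0.94 over the 13 interferon response genes, and Irgm1 alone, an interferon-induced GTPase, was higher by 1.90. Of the markers, 3 fibroblast and 5 interferon genes passed the variance test (limma, Benjamini-Hochberg adjusted). The count was 0 of the 39 members, beside 0.162% of all genes tested. Of the interferon genes that passed, Usp18 and Rtp4 were above background on 2 arrays only. In repeats 1 and 3 Irgm1 read 5.42 and 5.74, and Ifi27 read 6.04 and 5.70. These values lay under the cutoff of the other silent families (6.20 on both arrays) and were near background. The marker lists were chosen with earlier results of these data known, so these counts do not test a contrast with the members. Wars, named here after its values were seen because the gene is a known target of interferon gamma, read 8.94, 9.02 and 8.96. Its repeat 2 was the highest array, but by 0.068 log2 units over the mean of the others.

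In repeat 1 the median shift was -0.051 over cytosolic and -0.021 over mitochondrial enzymes, beside -0.011 over all genes. Repeat 1 was the lowest array in 9 of 16 cytosolic and 5 of 16 mitochondrial genes, and in 33.3% of all genes above background. In repeat 3 the median shift was 0.044 over cytosolic and 0.055 over mitochondrial enzymes, beside 0.0020 over all genes. Repeat 3 was the highest array in 8 of 16 genes of either class, and in 33.1% of all genes. Repeat 3 was the lowest in 1 cytosolic and 4 mitochondrial genes, and in 31.9% of all genes. Repeat 2 was the lowest in 6 cytosolic and 7 mitochondrial genes (34.7% of all genes), and repeat 1 the highest in 3 of either class (29.9%). The highest array was repeat 2 in 5 of 16 genes of either class (36.9%). The scaling of the arrays bore on repeat 1 and much less on repeat 3. In repeat 1 the median shift was -0.0018 over cytosolic and 0.024 over mitochondrial enzymes after quantile normalization, and -0.084 and -0.054 after centring on the array medians. In repeat 3 it was 0.047 and 0.052 after quantile normalization, and 0.060 and 0.070 after centring. Repeat 1 was the lowest in 6 cytosolic genes after quantile normalization and in 11 after centring, which also moved the median of all genes in repeat 1 to 0.012 and -0.044.

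**Figure D4:**
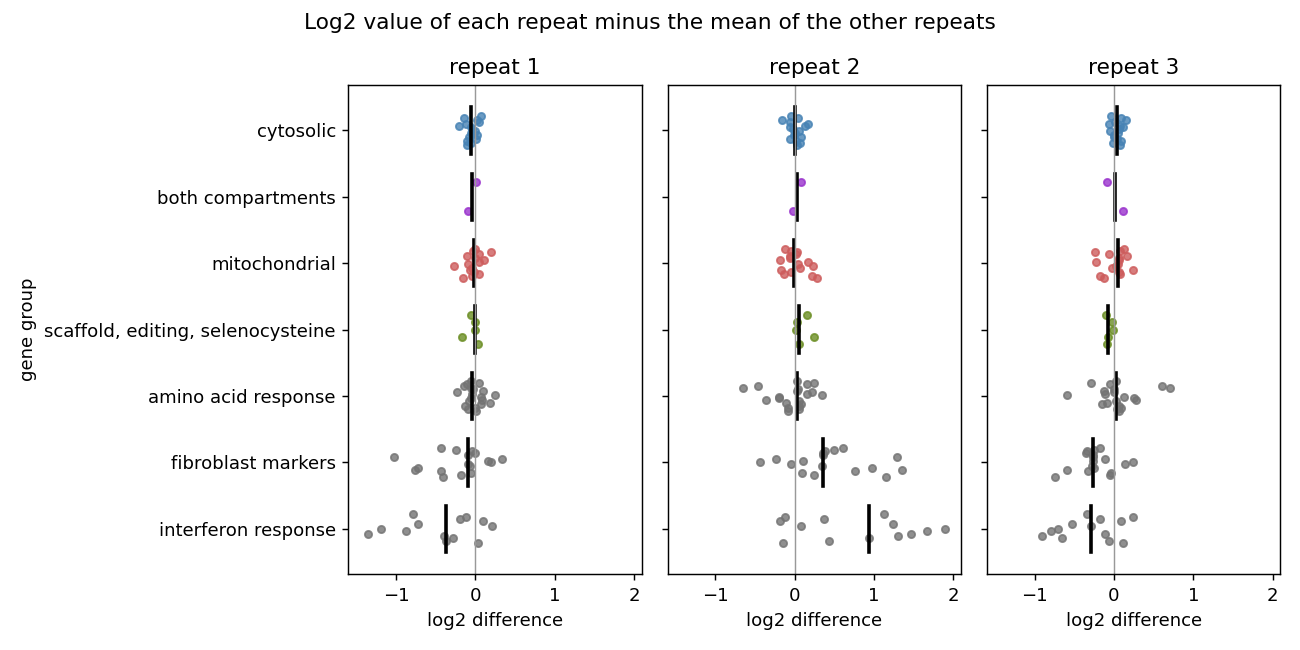
Log2 value of each repeat minus the mean of the other repeats, 1 panel per repeat and 1 point per gene, with a black bar at the median of each group. Synthetases and partners lie between -0.26 and 0.28 in every panel, while in repeat 2 the medians of the fibroblast and interferon response genes lie at 0.36 and 0.94, with some genes of both lists left of zero.

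The amino acid response was read beside the synthetases because Atf4 acts on both. Of 20 listed genes 19 were above background, beside 71.4% of genes outside the receptor families. In the limma variance test 0 passed (0.162% of all genes tested) and 3 had an unadjusted p under 0.05 (5.75%). Slc7a11, the cystine transporter, was below background on every array (4.48, 4.54 and 3.91). Atf4 itself read 8.40, 8.46 and 8.46. The most uneven genes were Chac1, which degrades glutathione, at 6.35, 5.95 and 6.85, and Trib3, a pseudokinase that restrains the response, at 6.79, 6.58 and 7.28. Both were highest in repeat 3 and lowest in repeat 2, and neither passed (adjusted p = 0.302 and 0.465, limma with Benjamini-Hochberg). In repeat 2 Chac1 lay under the cutoff of the other silent families (6.31), so that value was near background. The third gene at an unadjusted p under 0.05 ran the other way: Asns, asparagine synthetase, named here after its values were seen, read 11.11, 11.24 and 10.88, highest in repeat 2 and lowest in repeat 3 (adjusted p = 0.679). The median shift of the whole list in repeat 3 was 0.023.

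The element through which Atf4 and C/EBP factors act was searched in the RefSeq promoter windows of build GRCm38.p6, which run from 250 bases before to 50 bases after a gene's start. Windows were held for 29 of the 39 members: 9 cytosolic, 14 mitochondrial, 2 dual and 4 others. The letters TGATGNAAN, on either strand, were found in 3 of 9 cytosolic enzymes (Iars, Tars and Yars), in 1 of 2 dual enzymes (Gars) in 0 of 14 mitochondrial enzymes and in 0 of the 4 others. The share was 2.54% of 10135 genes above background and 4.50% of all 27025 genes in the table. The stricter form TGATGCAAT, a subset of the first, was found in Iars alone, and in 0.128% of genes above background. The 4 matches are shown because they are all the matches among members, each in an enzyme that works in the cytosol. They are written on the strand of the gene, with the match in capitals; in Iars, Tars and Gars it reads on the opposite strand.
Iars: actgtcagtATTGCATCAcctccagac
Tars: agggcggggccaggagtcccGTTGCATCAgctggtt
Yars: gagctcagcTGATGCAACccgacggga
Gars: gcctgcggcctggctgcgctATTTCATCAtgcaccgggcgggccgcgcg
They lie at chr13:49682127-49682153 (Iars, plus strand), chr15:11399659-11399694 (Tars, minus strand), chr4:129189897-129189923 (Yars, plus strand) and chr6:55037950-55037998 (Gars, plus strand). The match begins 16 bases before the start in Tars and 31 bases before it in Gars, and at base 7 and base 4 of the transcript in Iars and Yars.

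The genes that carry these letters shared no order of the arrays. Tars and Yars were highest in repeat 3, at 9.24 and 9.49, Gars was lowest there (10.10), and Iars was highest in repeat 2 as the mean of its probe sets (10.17). Iars, again as the mean, spanned 0.221 log2 units, Yars and Gars 0.118 each and Tars 0.062, beside 0.058 for Atf4. The brighter Iars probe set alone read 10.39, 10.31 and 10.36, a narrower span, with repeat 1 the highest and repeat 2 the lowest. A match of letters is not a measured binding site.

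Letters of 2 other factors were searched on both strands of the same windows. The element of Nrf1, a regulator of nuclear genes for mitochondria, was found in 2 of 9 cytosolic, 2 of 14 mitochondrial, 1 of 2 dual and 1 of 4 other windows. That is 20.7% of the 29 members, beside 14.2% of genes above background. CCGGAAG, the core bound by ETS factors, was found in 3 of 9 cytosolic, 4 of 14 mitochondrial, 2 of 2 dual and 2 of 4 other windows. That is 37.9% of the 29 members, beside 18.5% of genes above background. Median GC content was 56.0% for cytosolic and 58.2% for mitochondrial windows, beside 61.0% for genes above background.

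The remaining charging factors were also detected throughout. All 9 further charging and transfer RNA factors were above background, beside 71.4% of genes outside the receptor families. In the limma variance test 0 passed (0.162% of all genes tested) and 1 had an unadjusted p under 0.05 (5.75%). That gene was Prorsd1, a relative of an editing domain of prolyl-tRNA synthetase, at 6.37, 6.95 and 6.90, with repeat 1 well below the other arrays (adjusted p = 0.601, limma with Benjamini-Hochberg). Tarsl2, a threonyl-tRNA synthetase paralog, read 6.36, 6.26 and 6.06. In repeats 2 and 3 it lay under the cutoff of the other silent families (6.31 and 6.20). Mitochondria lack a glutaminyl enzyme of their own and make its charged transfer RNA by amidation. The genes of that step and of formylation, Gatb, Gatc, Qrsl1 and Mtfmt, were 4 of 4 above background, with Qrsl1 at 6.33, 6.37 and 6.49 and Gatc at 6.47, 6.46 and 6.54.

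Charged transfer RNAs are used in elongation, and genes listed with the elongation factors were read as well. All 5 measured cytosolic factors were above background, beside 71.4% of genes outside the receptor families. Eef1b2, a nucleotide exchange subunit, was the most uneven at 10.75, 10.99 and 11.01, and Eef1a2 read 6.48, 6.37 and 6.23. All 5 mitochondrial factors were above background too, with Guf1 at 7.18, 7.26 and 7.39 and Gfm2 at 8.18, 8.34 and 8.32. The median SD was 0.043 for the cytosolic and 0.087 for the mitochondrial factors, but divided by the trend at each gene's level it was 0.80 and 0.83. The 5 genes of the wider selenocysteine machinery were all above background, again beside 71.4% of genes outside the receptor families. Sephs2, which makes the selenium donor, read 9.06, 8.93 and 9.12. Secisbp2, which binds the selenocysteine insertion element, read 6.78, 6.75 and 6.91. In the lists of amidation, of both kinds of elongation factor and of selenocysteine, 0 genes passed the limma variance test (0.162% of all genes tested). At an unadjusted p under 0.05 in that test the count was again 0 (5.75% of all genes tested).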

How the data were processed

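The deposited table gives 1 linear intensity per probe set and array, read as such from its range; the submitters' processing notes name GCOS 1.4. How the authors corrected, normalized and summarised the probes is not given in the sources used here. The deposited intensities were taken to log2, and where a gene had more than 1 probe set their log2 values were averaged. Of 26730 probe sets 20764 carried 1 symbol in the platform annotation, 1419 several and 4547 none listed; the last 2 kinds were not used. All 39 member symbols matched RefSeq (GRCm38.p6). The variance test in limma 3.58.1 (R 4.3.3) divided each gene's variance by its prior variance (trended and robust) and took p from the F distribution (2 and 9.87 degrees of freedom) and was checked on simulated data. Tables were handled with pandas 2.3.3 and numpy 2.4.6 under Python 3.11.15. The number of arrays limits the precision. The members, gene lists, groupings and promoter letters were chosen with earlier results of these data known. Named genes were, in each synthetase class, the 4 with the largest SD, the 2 with the smallest and the 4 with the largest shift of repeat 2, both dual enzymes and all 5 partners; in other lists Eef1e1, Tarsl2, the 2 largest SDs and genes on a small side of the background call. Alternatives were other cutoffs, scalings, probe set rules and priors, and leaving out each repeat. Protein sequences were not used here.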

Additional observations from a re-analysis of the deposited data

Results flagged for a closer look

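Alanyl-tRNA synthetase has a probe set that the annotation shares with Exosc6, a subunit of the RNA exosome, so the rule of 1 symbol left it out. It averaged 9.25 log2 units, at 9.22, 9.23 and 9.31 in repeats 1, 2 and 3, above the receptor-gene cutoff on every array. Signal of the 2 genes cannot be told apart there.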

How the results depend on the processing

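Detection stayed at 16 cytosolic genes under all alternatives and at 14 to 16 mitochondrial genes. No alternative brought a member past the variance threshold, including fits without the robust prior, without the trend, on all genes and without each repeat in turn (0 members throughout in limma, also at an unadjusted p under 0.05), while the count over all genes ran from 0 (without repeat 1) to 39 (centred on the array medians). Quantile normalization moved the median shift of the cytosolic enzymes to -0.0018 in repeat 1 and to -0.047 in repeat 2; the cause was not tested. Leaving out each repeat in turn gave 16 and 16 detected genes, a median SD between 0.036 and 0.055 (cytosolic) and between 0.055 and 0.103 (mitochondrial), and median shifts between -0.057 and -0.037 in repeat 1, -0.031 and 0.037 in repeat 2 and 0.031 and 0.057 in repeat 3 (cytosolic), and between -0.038 and 0.017, -0.036 and -0.017, and 0.036 and 0.038 (mitochondrial). The brighter probe set alone gave Iars a shift of -0.067 in repeat 2. No paired analysis was possible because the samples form 1 group.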

Other observations

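Several members start head to head with another gene, on opposite strands with starts at most 1000 bases apart in the RefSeq promoter table of build GRCm38.p6. This was so for 8 of 29 members with a window (27.6%), against 18.4% of 10135 genes above background, and the partners were measured in all 8. Sars2 faces Mrps12, a gene of the mitochondrial ribosome, across 147 bases. Sars2 read 7.26, 7.19 and 7.46 in repeats 1, 2 and 3, and Mrps12 read 6.47, 6.50 and 6.78, so both were highest in repeat 3. Ears2 faces Ubfd1 across 112 bases, and here the arrays stood in opposite order: Ears2 read 6.61, 6.50 and 6.32, and Ubfd1 9.16, 9.32 and 9.34. Kars starts 5 bases from Terf2ip, a telomere protein gene, and read 9.82, 9.88 and 9.96 beside 5.59, 5.86 and 5.89 for Terf2ip, both lowest in repeat 1. Terf2ip lay under the cutoff of the other silent families (6.20, 6.31 and 6.20) on every array, so its signal was near background. Rars2 faces Orc3, a gene of the replication origin complex, across 15 bases, with Rars2 at 7.92, 8.00 and 7.94 and Orc3 at 8.52, 8.63 and 8.75. The other facing pairs were Aimp1 with Tbck, Aimp2 with Pms2, Fars2 with Lyrm4 and Yars with S100pbp. In each of these both genes had the same highest array. It was repeat 2 for the Aimp1 and Aimp2 pairs, repeat 1 for the Fars2 pair and repeat 3 for the Yars pair. The arrays of Aimp1 and Aimp2 lay close together (SD 0.019 and 0.011). The Ears2 and Rars2 pairs did not share their highest array. With 3 arrays no correlation was computed for these pairs.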
